A study of Arabidopsis thaliana with 6 samples.

Results

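The cellulose synthase superfamily of Arabidopsis thaliana was followed in epic2 mutant plants and in the plants they were compared with. The family has 40 members, 10 cellulose synthases (CESA) and 30 cellulose synthase-like genes (CSL) in 6 subfamilies, against 26765 rows in the whole table. Members were taken by locus code or gene name, and they were chosen with earlier results of these data known. Of these, 39 had a row of their own, and CSLD3 shared a row with its neighbour AT3G03060. Aerial tissue of seedlings was taken at 17 days, from plants grown at 24 °C with 16 h of light. Both groups, epic2 and wild type, are in the Col-0 background, with 3 biological replicates each. The altered gene and allele of epic2 are not given in the sources used here. The authors' table calls its groups epic2 and silex, a name that no label uses. Since the labels hold only 2 groups, silex is read here as wild type, and every direction below is epic2 against silex. The authors deposited 1 value per group, in FPKM, which counts fragments relative to transcript length and to the size of the library, so no spread over samples can be given and depth is unknown. The error after ± beside each log2 fold change is a standard error implied by the authors' test statistic. A gene is called where the authors' q (their adjusted p) was 0.05 or lower.

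Cellulose is made at the plasma membrane by rosette-shaped complexes of CESA proteins, which extrude glucan chains that assemble into microfibrils. CESA1, CESA3 and members of the CESA6 group work together in the primary walls of growing cells, whereas CESA4, CESA7 and CESA8 make the cellulose of secondary walls, as in xylem vessels. The CSL proteins are related glycosyltransferases, most of them thought to act in the Golgi. CSLA proteins make the backbone of mannan and glucomannan, CSLC proteins the glucan backbone of xyloglucan, and CSLD proteins a glucan needed in tip-growing and dividing cells. The roles of CSLB, CSLE and CSLG proteins in Arabidopsis are less well known. In spinach and legumes CSLG proteins attach glucuronic acid to triterpenoids.

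All members carry the Q-x-x-R-W motif of processive glycosyltransferases, in which x is any residue. The coding bases around it are shown for members on which the results turn, to show what the subfamilies share and where they differ. They were read from the RefSeq annotation of TAIR10.1, 5′ to 3′ on the coding strand, with the codons of the motif in capitals.

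CESA6 (chr5:25885376-25885408, plus strand): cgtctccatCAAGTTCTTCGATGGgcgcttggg

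CSLD5 (chr1:595456-595488, minus strand): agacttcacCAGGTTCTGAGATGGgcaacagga

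CSLA01 (chr4:9347750-9347782, plus strand): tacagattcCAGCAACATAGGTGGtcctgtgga

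CSLA09 (chr5:986776-986808, minus strand): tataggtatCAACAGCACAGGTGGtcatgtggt

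CSLC04 (chr3:10508237-10508269, plus strand): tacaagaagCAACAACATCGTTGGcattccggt

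CSLB04 (chr2:13817332-13817364, plus strand): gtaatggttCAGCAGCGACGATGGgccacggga

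CSLG3 (chr4:12459743-12459775, plus strand): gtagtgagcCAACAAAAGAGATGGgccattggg

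Translated, the motif was QVLRW in all 10 CESA and all 6 CSLD genes. It was QQHRW in all 9 CSLA genes and in all CSLC genes except CSLC06, which has QQYRW. CSLB genes have QQRRW, apart from QHRRW in CSLB06, and CSLE1 has QQRRW as well. CSLG3 has QQKRW and its tandem neighbours CSLG1 and CSLG2 have QQIRW. The annotated proteins range from 520 residues in CSLA01 to 1181 residues in CSLD5.

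In epic2 members of the family changed in both directions, also within CSLA. Among the CESA genes of primary walls the 1 called higher was CESA9, at 1.34 FPKM in epic2 and 0.804 FPKM in silex. It was not called at a q of 0.01. CESA3, CESA5 and CESA6 fell, as did CSLA09, CSLA02 and CSLA10 and the xyloglucan synthases CSLC04 and CSLC08. The minor mannan synthase gene CSLA01 rose to 32.3 FPKM in epic2, against 3.21 FPKM in silex. CSLG3 rose 2.44-fold, CSLB04 1.64-fold and CSLA15 1.51-fold, and CSLB03, CESA9 and CSLD5 were the other members called higher. Of the 39 members with a row of their own, 30 were tested by the authors and 9 were left out for lack of data. Among the 30, 7 were called higher in epic2, 10 lower and 13 were not called, by the authors' test as deposited. That is 56.7% of the tested members, where 18.3% of all 18916 tested rows were called. The median implied standard error was 0.13 in the tested members and 0.16 in all tested rows. Smaller changes could thus be called in the members, and the bearing of this on the share called was not tested. The members called higher made up 23.3% of those tested, against 9.51% of all tested rows, and those called lower 33.3%, against 8.80%. Where the mean of both groups reached 10 FPKM, 16 members were tested, 4 of them higher in epic2 and 6 lower. In the 9944 tested rows at that level, 14.4% were called higher and 9.72% lower. The median log2 change of the tested members was -0.14, and that of all tested rows was 0.01. Most changes were small, since 15 of the 17 called members differed by less than 2-fold.

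**Figure D1:**
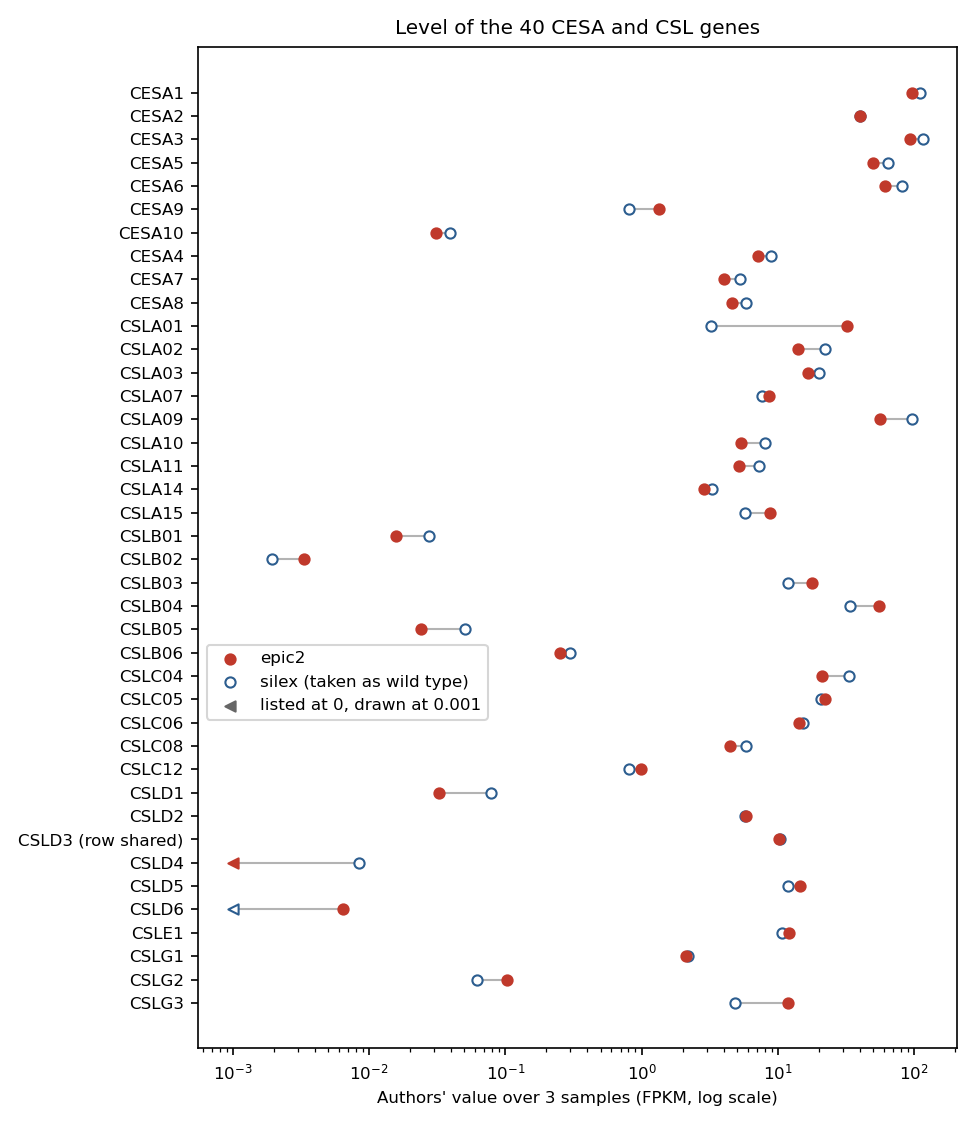
Authors' level of each of the 40 CESA and CSL genes in epic2 (filled) and silex (open), in FPKM on a log axis, 1 value per group over 3 samples. CSLA01 stands at 32.3 FPKM in epic2 and 3.21 FPKM in silex, the widest gap among members above 1 FPKM, and CSLD3 shares its row with a neighbouring gene.

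**Figure D2:**
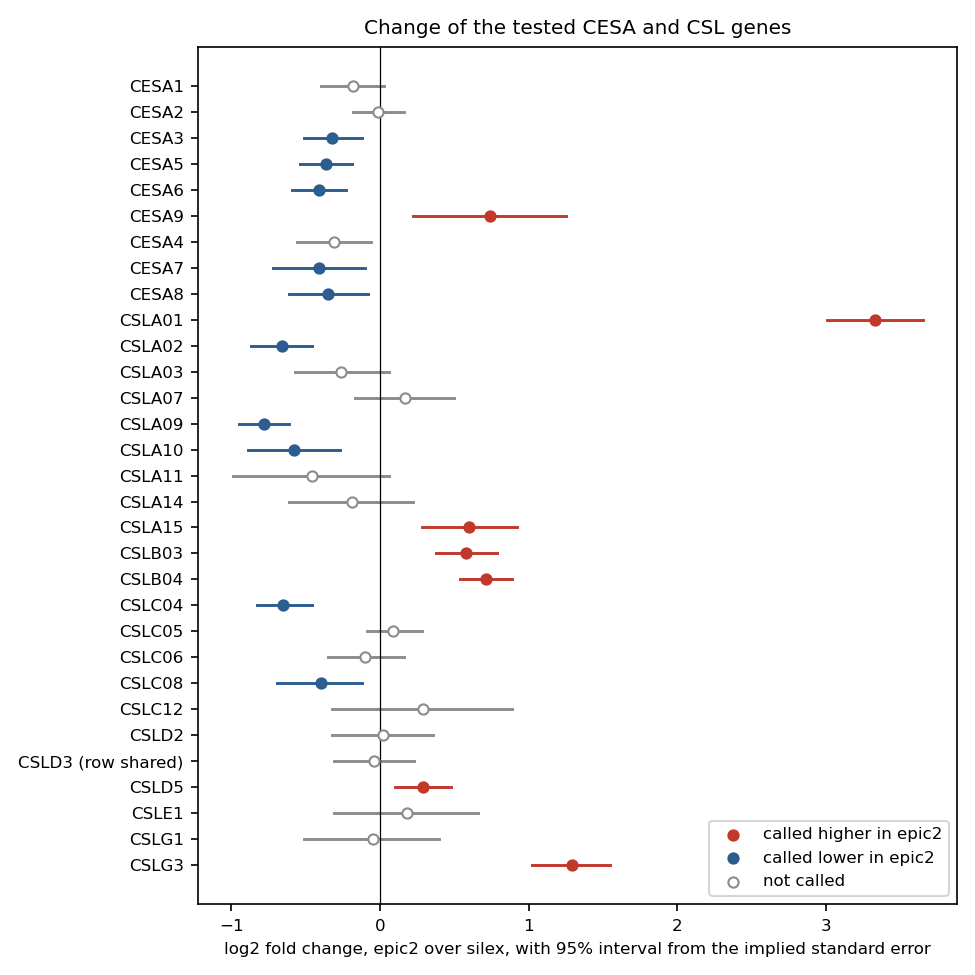
The log2 fold change, epic2 over silex, of the 30 tested members with a row of their own and of the row that holds CSLD3, with 95% intervals from the implied standard error. Red marks 7 genes called higher in epic2, blue 10 called lower and grey those not called.

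Of the 7 CESA genes of primary walls CESA3, CESA5 and CESA6 fell in epic2 and CESA9 rose. Over all tested rows 8.80% were called lower and 9.51% higher. CESA1 and CESA3, the core subunits of the complex, were the most abundant members of the family in both groups and jointly held 55.4% of the summed FPKM of the 7 genes of this type in epic2. CESA3 (AT5G05170), listed under its other name CEV1, fell to 92.5 FPKM in epic2, against 115.1 FPKM in silex. In the authors' deposited table its log2 fold change was -0.32 ± 0.10, with q = 0.00774. CESA1 (AT4G32410) stood at 97.0 FPKM in epic2 and 110.2 FPKM in silex and was not called, with a 95% interval for its log2 fold change of -0.40 to 0.03. CESA6 (AT5G64740), which can share a place in the complex with CESA2, CESA5 and CESA9, fell to 61.5 FPKM in epic2, against 81.8 FPKM in silex. The authors' deposited table gives it log2 fold change -0.41 ± 0.09, q = 0.000124. CESA5 (AT5G09870), also known from seed coat mucilage, fell to 49.8 FPKM in epic2, against 64.1 FPKM in silex (log2 fold change -0.36 ± 0.09, q = 0.000463, authors' deposited table). CESA2 (AT4G39350), also of that group, was 40.1 FPKM in epic2 and 40.3 FPKM in silex, with an interval of -0.18 to 0.16. CESA5 and CESA6 were thus called lower and CESA2 was not, and the difference between these genes was not tested. RNA of whole aerial parts was measured, in which fewer cells of a type and less RNA per cell cannot be told apart.

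CESA9, which acts in the seed coat, was the 1 primary-type gene called higher, at a low level. It stood at 1.34 FPKM in epic2 and 0.804 FPKM in silex (log2 fold change 0.74 ± 0.26, q = 0.0242, authors' deposited table). It was not called at a q of 0.01. None of the 4 seed storage and oil body markers was tested. They summed to 0.102 FPKM in epic2 and 0.0919 FPKM in silex, and CRC and SESA3 were listed at 0 in both. The bearing of these storage and oil body markers on the change of CESA9 was not tested. On the log2(FPKM + 1) scale the change of CESA9 was 0.37. CESA10, a close relative of CESA1, was not tested at 0.0311 FPKM in epic2 and 0.0394 FPKM in silex. Summed over the 7 genes, the primary type reached 342.2 FPKM in epic2 and 412.4 FPKM in silex, a ratio of 0.830.

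Of the 3 CESA genes of secondary walls CESA7 and CESA8 were called lower in epic2 and CESA4 was not called. Over all tested rows 8.80% were called lower. CESA7 (AT5G17420, listed as IRX3) stood at 3.99 FPKM in epic2 and 5.31 FPKM in silex (log2 fold change -0.41 ± 0.16, q = 0.0395, authors' deposited table). CESA8 (AT4G18780, listed as IRX1) stood at 4.62 FPKM in epic2 and 5.88 FPKM in silex (log2 fold change -0.35 ± 0.13, q = 0.0432, authors' deposited table). CESA4 (AT5G44030) was 7.14 FPKM in epic2 and 8.85 FPKM in silex and was not called, with log2 fold change -0.31 ± 0.13 and q = 0.0577 (authors' deposited table). The 3 q values lie close to the threshold, on either side of it, and whether CESA4 differs from the others was not tested. Neither CESA7 nor CESA8 passed when the deposited p-values were adjusted by Benjamini-Hochberg over all tested rows, at adjusted p-values of 0.0524 and 0.0573. The rows of these genes share their intervals or ends with other genes. AT5G17410, in the same interval as CESA7, stood at 8.34 FPKM in epic2 and 7.48 FPKM in silex. The row of CESA4 overlaps that of AT5G44040. MYB98, in the same interval as CESA8, was at 0.0613 FPKM in epic2 and 0.0174 FPKM in silex. The libraries' strand is not stated, so reads of overlapping genes may be divided between them. The 3 genes kept nearly the same proportions, with CESA4 at 45.3% of their sum in epic2 and 44.2% in silex.

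The CSLA genes of mannan synthesis showed the widest change of the family. CSLA01 (AT4G16590; its row spans bases 9345150 to 9349221 of chromosome 4, TAIR10) was at 32.3 FPKM in epic2 and 3.21 FPKM in silex. In the authors' deposited table its log2 fold change was 3.33 ± 0.16, with q listed as 0. Of all 18916 tested rows, 34 (0.180%) had an absolute log2 fold change of that size or more, CSLA01 included. CSLA01 had the lowest level of the 9 CSLA genes in silex and rank 2 of 9 in epic2, behind CSLA09. It made up 21.6% of the summed CSLA level in epic2, against 1.85% in silex. None of its 1402 distinct exonic 50-base stretches, the length of the reads, had a second exact match in the genome. The coding sequence closest to it was that of CSLA11, with 76.8% identity over aligned bases.

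CSLA09 (AT5G03760), the chief glucomannan synthase gene of stems and the most abundant CSLA gene in both groups, fell to 55.9 FPKM in epic2, against 96.0 FPKM in silex. In the authors' deposited table its log2 fold change was -0.78 ± 0.09, with q listed as 0. CSLA02 (AT5G22740), which makes glucomannan of seed coat mucilage, fell to 14.1 FPKM in epic2, against 22.3 FPKM in silex (log2 fold change -0.66 ± 0.10, q = 6.3e-09, authors' deposited table). CSLA10 (AT1G24070) fell to 5.37 FPKM in epic2, against 8.02 FPKM in silex (log2 fold change -0.58 ± 0.16, q = 0.00182, authors' deposited table). CSLA15 (AT4G13410) rose to 8.70 FPKM in epic2, against 5.74 FPKM in silex (log2 fold change 0.60 ± 0.16, q = 0.00187, authors' deposited table). CSLA10 and CSLA15, whose coding sequences are 82.3% identical, thus changed in opposite directions. CSLA03, CSLA07, CSLA11 and CSLA14 were not called. CSLA03 was 16.7 FPKM in epic2 and 20.0 FPKM in silex, CSLA11 was 5.22 FPKM in epic2 and 7.21 FPKM in silex, and CSLA14 was 2.89 FPKM in epic2 and 3.31 FPKM in silex. CSLA07, which is needed for embryo growth, was 8.56 FPKM in epic2 and 7.62 FPKM in silex, with an interval of -0.17 to 0.50, and the intervals of the others also spanned 0. Without CSLA01 the summed CSLA level was 117.4 FPKM in epic2 and 170.1 FPKM in silex, and with it 149.7 FPKM in epic2 and 173.3 FPKM in silex.

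**Figure D3:**
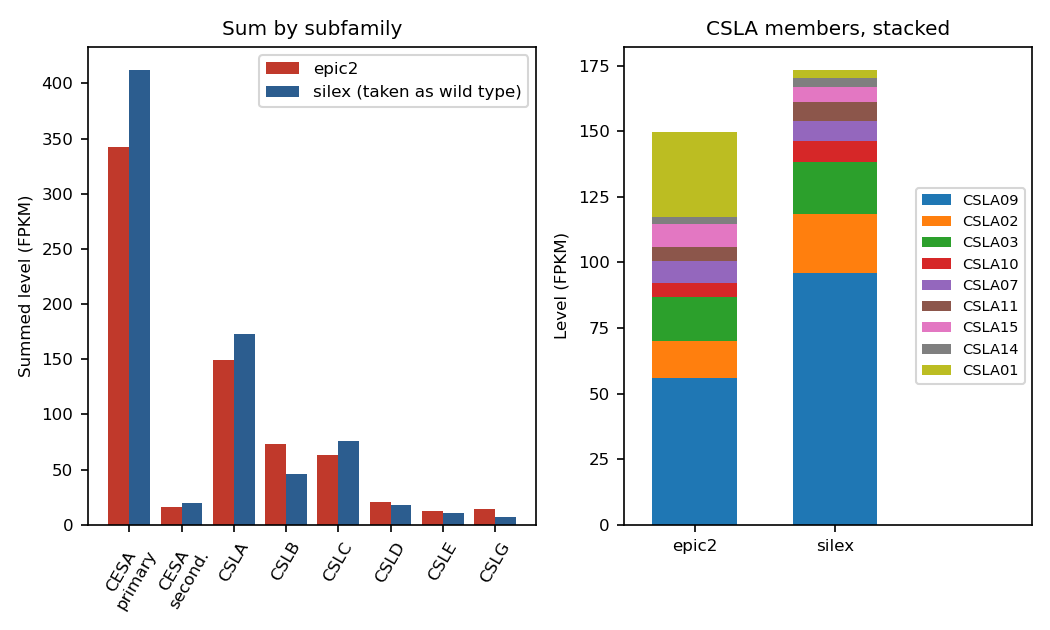
Left, summed FPKM of the members with a row of their own in each subfamily, epic2 in red and silex in blue; right, the 9 CSLA genes stacked by FPKM. CSLA01 takes 21.6% of the CSLA sum in epic2 and 1.85% in silex, while CSLA09 takes 37.4% in epic2 and 55.4% in silex.

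The CSLC genes of xyloglucan synthesis had 2 members lower in epic2, 3 not called and 0 higher. Over all tested rows 8.80% were called lower and 9.51% higher. CSLC04 (AT3G28180), which makes the glucan backbone of xyloglucan and was the most abundant CSLC gene in silex, fell to 21.1 FPKM in epic2, against 33.0 FPKM in silex. In the authors' deposited table its log2 fold change was -0.65 ± 0.09, with q = 3.62e-10. CSLC08 fell to 4.42 FPKM in epic2, against 5.85 FPKM in silex (log2 fold change -0.40 ± 0.15, q = 0.0275, authors' deposited table), and was not called at a q of 0.01. CSLC05, whose coding sequence is 85.9% identical to that of CSLC08, was 22.1 FPKM in epic2 and 20.7 FPKM in silex, with an interval of -0.09 to 0.28. CSLC05 thus held 35.2% of the summed CSLC level in epic2 and 27.5% in silex, and CSLC04 held 33.6% in epic2 and 43.7% in silex. CSLC06 was 14.2 FPKM in epic2 and 15.2 FPKM in silex, and CSLC12 was 0.988 FPKM in epic2 and 0.810 FPKM in silex, with intervals of -0.35 to 0.16 for CSLC06 and -0.32 to 0.89 for CSLC12.

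Among the CSLB, CSLG and CSLE genes no member was called lower. Over all tested rows 8.80% were called lower, so this is no result about these subfamilies. CSLB04 (AT2G32540) rose to 55.3 FPKM in epic2, against 33.8 FPKM in silex (log2 fold change 0.71 ± 0.09, q = 1.08e-13, authors' deposited table). CSLB03 (AT2G32530), which lies 1115 bases before it in the same orientation, rose to 17.7 FPKM in epic2, against 11.8 FPKM in silex (log2 fold change 0.58 ± 0.11, q = 9.44e-07, authors' deposited table). Their coding sequences are 88.8% identical, and 3.68% of the exonic 50-base stretches of CSLB03 and 1.63% of those of CSLB04 had another exact match in the genome. The other CSLB genes were not tested. CSLB01, 17944 bases beyond CSLB04 on chromosome 2, was 0.0158 FPKM in epic2 and 0.0275 FPKM in silex, and CSLB02 next to it was 0.00333 FPKM in epic2 and 0.00194 FPKM in silex. CSLB06 was 0.253 FPKM in epic2 and 0.299 FPKM in silex, and CSLB05 was 0.0241 FPKM in epic2 and 0.0506 FPKM in silex. Of the exonic 50-base stretches 29.6% in CSLB06 and 17.1% in CSLB05 had another exact match, so the division of their few reads is uncertain.

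The 250 bases before the annotated starts of CSLB03 and CSLB04 are shown because this tandem pair rose together. They were read from the RefSeq annotation of TAIR10.1, whose nuclear coordinates are those of TAIR10. Capitals mark motif matches. The TATA motif TATAAA was searched on the coding strand, and the others on both strands. These were the G-box, spelled CACGTG, and its core, spelled ACGTG, which also matches inside every G-box. Further motifs were the W-box core bound by WRKY factors, spelled TTGAC, and an element bound by MYB factors, spelled ACCAAAC.

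CSLB03 (chr2:13808769-13809018, plus strand): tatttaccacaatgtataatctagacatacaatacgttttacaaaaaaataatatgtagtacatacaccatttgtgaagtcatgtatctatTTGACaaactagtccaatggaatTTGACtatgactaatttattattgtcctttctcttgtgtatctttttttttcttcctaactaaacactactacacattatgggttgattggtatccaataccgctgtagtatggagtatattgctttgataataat

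CSLB04 (chr2:13814293-13814542, plus strand): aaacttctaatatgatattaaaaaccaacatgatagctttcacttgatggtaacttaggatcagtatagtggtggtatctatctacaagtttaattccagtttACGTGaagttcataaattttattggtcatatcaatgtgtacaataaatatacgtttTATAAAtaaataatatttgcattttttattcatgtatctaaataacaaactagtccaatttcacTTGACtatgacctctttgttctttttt

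The longest stretch found in both windows on the coding strand was acaaactagtccaat, 15 bases long, beginning 156 bases before the start of CSLB03 and 47 bases before that of CSLB04. The stretches tcatgtatcta and ttgactatgac, each 11 bases long, flank it in both windows. All 3 lie 109 bases nearer to the start in CSLB04 than in CSLB03. The stretch nearest to the start holds a TTGAC match in both windows. TTGAC was also found in the windows of CSLB01, CSLB02, CSLB05 and CSLB06, which were not tested, so it does not set this pair apart. CSLB03 has a further TTGAC match 159 bases before its start, while the CSLB04 window has ACGTG at 147 bases and TATAAA at 91 bases. Neither window holds the G-box or the MYB element. Over the windows of 27438 protein-coding genes, TTGAC is found in 44.9%, TATAAA in 32.9% and ACGTG in 22.9%. The MYB element is found in 8.28% and the G-box in 6.49%.

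CSLG3 (AT4G23990) rose to 11.8 FPKM in epic2, against 4.83 FPKM in silex, which made it the largest change after that of CSLA01. In the authors' deposited table its log2 fold change was 1.29 ± 0.13, with q listed as 0. Its tandem copies lie downstream, with CSLG2 1276 bases away. CSLG1 (AT4G24010), 86.0% identical to CSLG3 in coding sequence, was 2.11 FPKM in epic2 and 2.19 FPKM in silex, with an interval of -0.51 to 0.40. CSLG2 was not tested at 0.103 FPKM in epic2 and 0.0620 FPKM in silex. Exact 50-base matches elsewhere covered 0.952% of the CSLG3 stretches and 1.42% of those of CSLG1. CSLE1 (AT1G55850) was 12.1 FPKM in epic2 and 10.7 FPKM in silex and was not called, with an interval of -0.31 to 0.66, and its row interval is shared with UPL1. The row interval of CSLG1 is likewise shared with AT4G24015.

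Of the CSLD genes, which act in root hairs, pollen tubes and dividing cells, CSLD5 alone was called. Only 2 CSLD genes were tested with a row of their own, and 18.3% of all tested rows were called. CSLD5 (AT1G02730), which helps to build the cell plate in dividing cells, rose to 14.5 FPKM in epic2, against 11.8 FPKM in silex. The authors' deposited table gives log2 fold change 0.29 ± 0.10, q = 0.0142, so the gene was not called at a q of 0.01. CSLD2, which acts in root hairs, was 5.84 FPKM in epic2 and 5.76 FPKM in silex, with an interval of -0.32 to 0.36. The row that holds CSLD3, needed for root hair growth, and AT3G03060 together was 10.1 FPKM in epic2 and 10.4 FPKM in silex and was not called. The pollen genes CSLD1 and CSLD4 were not tested. CSLD1 was 0.0324 FPKM in epic2 and 0.0782 FPKM in silex, and CSLD4 was listed at 0 in epic2 and 0.00846 FPKM in silex. CSLD6 was listed at 0.00640 FPKM in epic2 and 0 in silex.

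Leaf markers were abundant in the labelled aerial tissue. The 5 with a row of their own reached at least 4485.9 FPKM in epic2 and 4812.6 FPKM in silex. None was called, where 18.3% of all tested rows were. Their 95% intervals were wide, between -0.65 to 0.45 for LHCB2.1 and -1.06 to 1.31 for RBCS3B, so a change in either direction remains possible. The 4 root hair markers summed to 1.29 FPKM in epic2 and 0.850 FPKM in silex, with EXPA7 listed at 0 in both. Only COW1 among them was tested, at 1.11 FPKM in epic2 and 0.748 FPKM in silex, and it was not called. The 4 pollen markers summed to 2.45 FPKM in epic2 and 2.31 FPKM in silex, nearly all of it from ANX1, with VGD1 listed at 0 in both. Of 4 root markers 3 had a row, and these summed to 3.32 FPKM in epic2 and 1.21 FPKM in silex. Of these CASP1 and FRO2 were called higher, where 9.51% of all tested rows were. CASP1 stood at 1.52 FPKM in epic2 and 0.252 FPKM in silex, with an interval of 0.89 to 4.3. FRO2 stood at 1.74 FPKM in epic2 and 0.857 FPKM in silex, with an interval of 0.46 to 1.58. NRT2.1 was not tested, at 0.0574 FPKM in epic2 and 0.0967 FPKM in silex. Whether these low levels take part in the changes of CESA9 or the CSLD genes was not tested.

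Of 19 genes of the cellulose synthesis machinery 16 were tested with a row of their own, of which 8 were called lower, 0 higher and 8 were not called, where 8.80% of all tested rows were called lower and 9.51% higher. Their median was -0.23 on the log2 scale, with 13 genes below 0 and 3 above. The list and its 8 lower calls also hold THE1, a receptor kinase that senses impaired cellulose synthesis. THE1 fell to 11.7 FPKM in epic2, against 18.0 FPKM in silex. CC2, a companion that links the complex to microtubules, fell to 6.04 FPKM in epic2, against 10.3 FPKM in silex. COB, a membrane-anchored protein that orients microfibrils, fell to 71.1 FPKM in epic2, against 100.8 FPKM in silex, and CTL1, a chitinase-like protein, to 401.6 FPKM in epic2, against 549.7 FPKM in silex. KOR1, the endoglucanase of the complex, fell to 113.7 FPKM in epic2, against 144.3 FPKM in silex, and STL2, which acts in the assembly of the complex in the Golgi, to 8.71 FPKM in epic2, against 11.3 FPKM in silex. CSI1 and CC1 were the other called genes. Bonferroni adjustment over all tested rows left 2 of the 8 calls, those of THE1 and COB. Of 5 tested sucrose synthase genes, which can supply UDP-glucose, 0 were called.

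Of 20 tested genes of secondary walls and xylem 4 were called lower and 0 higher, where 8.80% of all tested rows were called lower and 18.3% in either direction. The median log2 change was -0.35, with 19 of 20 genes below 0. XCP1 and XCP2, cysteine proteases of xylem vessels, fell to 15.4 and 32.5 FPKM in epic2, against 30.0 and 50.4 FPKM in silex. TED6, which interacts with the secondary wall CESA complex, fell to 39.0 FPKM in epic2, against 57.8 FPKM in silex, and LAC17, a laccase of lignin formation, to 8.43 FPKM in epic2, against 11.3 FPKM in silex. The xylem regulators VND6, VND7, MYB46 and MYB83 were not called, with VND7 at 0.675 FPKM in epic2 and 1.35 FPKM in silex. The median for this list is close to the log2 changes of CESA4, CESA7 and CESA8. Whether the amount of xylem differs between the groups was not tested.

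Among 9 tested genes of mannan synthesis and breakdown 1 was called higher, 1 lower and 7 were not called, with a median of -0.19. These counts are near the share over all tested rows, 9.51% higher and 8.80% lower, so they are no result about the list. TBL26, an acetyltransferase of mannan, rose to 63.6 FPKM in epic2, against 22.0 FPKM in silex (log2 fold change 1.53 ± 0.10, q listed as 0, authors' deposited table). Its close relative TBL25 was 53.4 FPKM in epic2 and 61.7 FPKM in silex and was not called. MSR1, which promotes mannan synthesis, fell to 26.2 FPKM in epic2, against 34.6 FPKM in silex. Among 11 tested xyloglucan genes 3 were called lower and 0 higher, where 8.80% of all tested rows were called lower and 9.51% higher. Their median log2 change was -0.19. None of the 3 was called after Bonferroni adjustment. These were AXY8, a fucosidase, at 15.4 FPKM in epic2 and 19.9 FPKM in silex, MUR3, a galactosyltransferase, at 9.85 FPKM in epic2 and 12.4 FPKM in silex, and XYL1, a xylosidase, at 68.3 FPKM in epic2 and 84.0 FPKM in silex. XXT1, XXT2 and XXT5, the xylosyltransferases that act on the CSLC product, were not called.

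**Figure D4:**
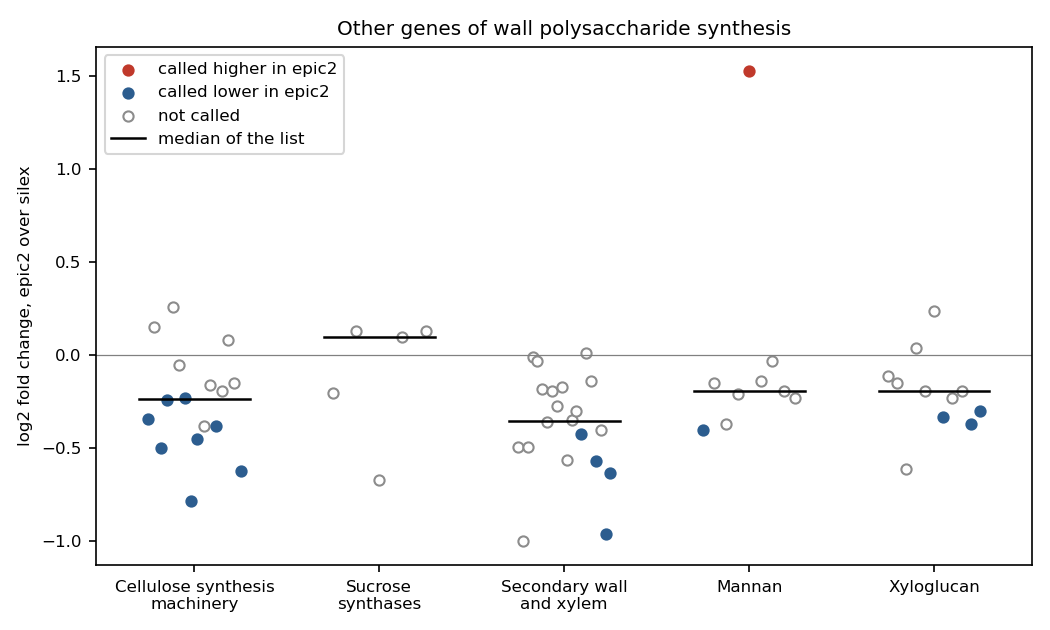
The log2 fold change, epic2 over silex, of each tested gene in 5 lists of wall polysaccharide synthesis, with the median of each list as a bar. In the cellulose machinery list, which also holds the receptor kinase THE1, 8 of 16 genes are called lower and 0 higher. TBL26 at 1.53 is the 1 gene called higher in any of the lists.

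Rows next to the called members were examined on either side, 3 in each direction. Of 94 such rows that hold no member, 66 were tested, of which 4 were called higher and 6 lower. These counts are near the shares over all tested rows, 9.51% higher and 8.80% lower, and are no result about the neighbourhood. Those called were AT2G32500, AT2G32550, AT2G32580, AT3G28200, AT4G18810, CAD2, RGF9, RLP51, RNR1 and UGT74B1. Of the 3 rows on either side of CSLA01 none was called, and AT4G16600 was not tested. The nearest neighbours of CSLA01, AT4G16580 and AT4G16600, lie 2122 and 817 bases away. Beside CSLB04, 1089 bases downstream, AT2G32550, annotated as an Rcd1-like protein, stood at 22.5 FPKM in epic2 and 2.60 FPKM in silex. Its log2 fold change in the authors' deposited table, 3.12 ± 0.25, was close in size to that of CSLA01 and larger than those of CSLB03 and CSLB04. The next row, AT2G32560, was not called. Around CSLG3, ARF9 and CSLG1 were not called and CSLG2 was not tested.

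**Figure D5:**
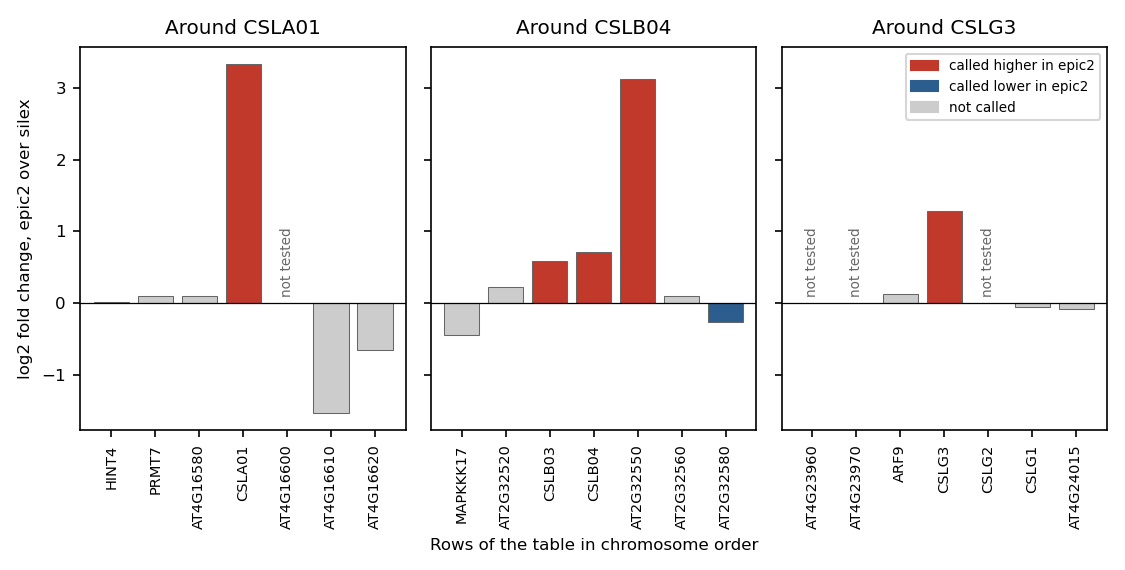
The log2 fold change, epic2 over silex, of CSLA01, CSLB04 and CSLG3 and of the 3 rows on either side in chromosome order, with rows the authors did not test marked. CSLA01 at 3.33 stands among rows that were not called or not tested, while CSLB03, CSLB04 and AT2G32550 were called higher in a row.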

How the data were processed

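RNA of 3 epic2 and 3 wild type samples was sequenced as single reads of 50 bases, per the labels. The submitters' processing notes list TopHat, Cufflinks, Cuffdiff and TAIR10 and give no version. Replicates are labelled biological, but nothing says that plants were grown apart, so the p-values reflect only variation among these samples, which may be technical. The authors deposited 1 FPKM value per group, with replicates pooled and the scaling between libraries not given in the sources used here. They deposited a p-value and a q-value for each of 18916 tested rows, across all genes. In 100% of tested rows with values above 0 the deposited log2 fold change was, within 0.001, the log2 of epic2 over silex FPKM, and the deposited p-value was that of a normal test statistic. The implied standard error is the log2 fold change divided by that statistic, and an interval is 1.96 standard errors on either side. With no counts, depth is unknown and no counting error is given.

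Members were matched by locus code, symbol or alias and by overlap with the RefSeq gene of TAIR10.1, whose nuclear sequence is that of TAIR10. All members are named, with up to 6 called genes of each pathway list and 3 rows on either side of each called member. The members and lists were chosen with earlier results of these data known, so no list was tested, and the counts of the family, the wall lists with called genes and the neighbours are set beside the share called over all rows. Pathway and marker genes sharing a row with another gene were left out. Identity was taken from global alignments of the longest annotated coding sequences. Matches of 50 bases were exact, on both strands, whereas aligners allow mismatches. The window before CSLA01 is not reported here. Each promoter window ends before the most upstream annotated start. RefSeq protein tables were not used here, so no amino acid sequences are shown. Alignments used Biopython 1.88, figures matplotlib 3.10.9, and tables pandas 2.3.3 under Python 3.11.15. The adjustment step was tested on simulated data.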

Additional observations from a re-analysis of the deposited data

How the results depend on the processing

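The log2(FPKM + 1) and log2(FPKM + 0.1) scales do not test direction, since adding the same amount to both groups cannot reverse it. Centring on the median moves every log2 change by the same small amount. It took the smallest called change, that of CSLD5, from 0.29 to 0.27, so no called direction could reverse. The median log2 change of the members lay between -0.18 and -0.12 in the alternatives. The value moved for CESA9 to 0.37, CSLA01 to 2.98 and CSLG3 to 1.13 on the log2(FPKM + 1) scale. Bonferroni adjustment left 7 of the 17 called members, 4 higher and 3 lower, and a minimum 2-fold change left 2, with 2 higher and 0 lower (CSLA01 and CSLG3). At a q of 0.01 CESA9, CESA7, CESA8, CSLC08 and CSLD5 were not called, and at a q of 0.10 CESA4 was. Benjamini-Hochberg adjustment over all tested rows lost CESA7 and CESA8. The 8 calls in the cellulose machinery became 7 under Benjamini-Hochberg adjustment, 6 at a q of 0.01 and 2 under Bonferroni, and under Bonferroni the 4 secondary wall calls became 2, the 3 xyloglucan calls 0 and the 2 mannan calls 1. A minimum mean of 1 FPKM and the inclusion of the CSLD3 row left 17 called, 7 higher and 10 lower. No paired analysis was possible because the deposited values are pooled over replicates, and replicates could not be left out in turn for the same reason. Pooling also hides any library that stands apart, and the implied standard errors rest on the authors' own model.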
